A study of Mus musculus with 9 samples.

Results

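The introns described here had at least 8 times more reads than expected, on an expected mean of at least 5, in polyadenylated RNA of mouse embryonic stem cells of the v6.5 line, among introns that were also measured after 2 h of treatment. They were selected on the DMSO 0 h means: an intron was taken where the authors' table gave it a mean at 2 h, an expected mean of at least 5 reads in DMSO at 0 h, and an observed mean at least 8 times the expected one. The rule chose 208 introns of 197 genes, which are 6.02% of the 3454 introns with a 2 h value and 0.936% of the 22228 introns in the table. A further 146 introns with a 2 h value reached 8-fold but had an expected mean under 5 and were left out by the rule, so larger ratios exist in the table, up to 5142. In 187 genes 1 intron was chosen, in 9 genes 2, and in Dst, which encodes the cytoskeletal linker dystonin, 3.

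The cells had been given the Clk kinase inhibitor KH-CB19 in its solvent dimethyl sulfoxide (DMSO), or the same volume of DMSO alone. They were harvested immediately (0 h) or after 2 h, so the groups were KH-CB19 at 0 h, DMSO at 0 h, KH-CB19 at 2 h and DMSO at 2 h, with 2 libraries each that the labels call independent biological replicates. All groups are of 1 cell line, grown on gelatin with serum and ESGRO, and the labels name no genetic change in any of them. Strand-specific paired-end sequencing was used after selection on oligo-dT. An untreated library of the same series was not analysed here. The table holds 1 mean per group, combined by the authors from 2 libraries, so no spread between replicates stands beside any value below.

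Most introns are removed while the RNA is still being made. Detained introns are a class that stays in otherwise spliced, polyadenylated transcripts, which are kept in the nucleus and are later spliced or degraded. Clk kinases phosphorylate SR proteins, splicing factors rich in arginine and serine, and so change how introns and exons are chosen. An intron that lies wholly inside a protein-coding exon of another transcript is known as an exitron, and the same stretch is then coding sequence in one transcript and removed in another.

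The members with the largest excess were short, and many of them lay inside coding exons. Shown here are 7 such introns, chosen because they include the 2 members with the largest DMSO excess and a repeat-rich case. Coordinates are those of the table, on mm9, and the letters come from GENCODE release M21 transcripts, which are on GRCm38, in which the same stretch is part of an exon. Capitals mark the 2 bases at each end of the intron.
Eif4g1 intron 21, chr16:20679852-20679956, plus strand: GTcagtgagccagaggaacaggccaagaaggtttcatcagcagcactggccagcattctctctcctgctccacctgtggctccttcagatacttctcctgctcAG
Rif1 intron 35, chr2:51965912-51966032, plus strand: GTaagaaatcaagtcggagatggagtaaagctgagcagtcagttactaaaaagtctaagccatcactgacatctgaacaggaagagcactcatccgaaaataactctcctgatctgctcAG
Msh6 intron 4, chr17:88384440-88384542, plus strand: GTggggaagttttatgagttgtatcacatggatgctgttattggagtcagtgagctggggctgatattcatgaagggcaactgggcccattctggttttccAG
Eif3a intron 23, chr19:60842287-60842406, minus strand: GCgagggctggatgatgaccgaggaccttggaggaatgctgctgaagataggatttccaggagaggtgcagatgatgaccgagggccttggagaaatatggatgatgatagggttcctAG
Bms1 intron 11, chr6:118354979-118355152, minus strand: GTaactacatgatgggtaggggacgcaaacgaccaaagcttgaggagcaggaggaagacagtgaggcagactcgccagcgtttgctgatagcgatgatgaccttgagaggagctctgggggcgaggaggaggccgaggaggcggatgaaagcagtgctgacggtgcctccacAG
Srrm2 intron 17, chr17:23956633-23956764, plus strand: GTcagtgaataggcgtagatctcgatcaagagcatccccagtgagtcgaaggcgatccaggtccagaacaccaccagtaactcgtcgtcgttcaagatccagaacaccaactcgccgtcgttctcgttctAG
Taf15 intron 35, chr11:83318213-83318332, plus strand: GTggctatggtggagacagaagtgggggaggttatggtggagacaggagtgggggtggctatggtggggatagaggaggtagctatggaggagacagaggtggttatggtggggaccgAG
In 6 of these the ends read GT and AG, the usual ends of an intron. The intron of Eif3a begins with GC, a less common variant. The intron of Taf15 repeats a short unit coding for a glycine-rich stretch. In the introns of Eif3a and Srrm2, too, some stretches recur with few changes. How the authors counted reads that fit several repeated stretches is not given in the sources used here.

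Excess was read first in DMSO at 0 h, where the rule itself applied, so those values are a description only. Over the 208 introns, the observed mean ranged from 40 to 2219 reads with a median of 165.5, against an expected mean with a median of 12.25 reads. The excess, observed over expected, had a median of 10.3 and reached 161. Most values sat close to the limit: 137 introns had an excess under 12, 23 had 20 or more and 8 had 40 or more. Just inside the limit were introns of Mdn1 and Nup88 at 8 and of Hspbp1 at 8.06. Just outside it were Gcn1l1 at 7.96 and introns of A230046K03Rik and Ssbp4 at 7.94 each.

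Among members, the highest excess in either group was in Eif4g1 and Rif1, and the most observed reads in DMSO were in Msh6. Intron 21 of Eif4g1, a scaffold of the complex that loads ribosomes onto capped mRNA, had 1030 observed against 7 expected reads in KH-CB19 at 0 h, and 1446.5 against 9 in DMSO at 0 h. Intron 35 of Rif1, a regulator of replication timing and double-strand break repair, had 612 against 4 reads in KH-CB19 and 864 against 6 in DMSO. Intron 4 of Msh6, a mismatch recognition protein, had 1376 against 17.5 reads in KH-CB19 and 2219 against 29 in DMSO. The order of Eif4g1 and Rif1 by excess differed between the groups, with Rif1 at 153 and Eif4g1 at 147 in KH-CB19, and Rif1 at 144 and Eif4g1 at 161 in DMSO.

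Intron 2 of Dnmt3l, a cofactor of the de novo DNA methyltransferases, had an excess of 98.8 in KH-CB19 and 85.3 in DMSO. It was matched to an intron in the 5' UTR. Intron 23 of Eif3a, a subunit of translation initiation factor eIF3, had an excess of 83.9 in KH-CB19 and 73.1 in DMSO. Intron 11 of the ubiquitin ligase gene Trip12 had 66.5 in KH-CB19 and 69.7 in DMSO. These 3 introns were short, at 104, 120 and 186 bp.

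The next introns in the order had lower but still large values. Bms1, a GTPase of small ribosomal subunit assembly, had an excess of 58.8 in KH-CB19 and 49.5 in DMSO in its intron 11. Intron 45 of Fn1, which encodes fibronectin, had 49.6 in KH-CB19 and 45.3 in DMSO. Sae1, a subunit of the SUMO-activating enzyme, had 40.5 in KH-CB19 and 39.2 in DMSO. The remaining 3 of the first 12 were Chaf1a (chromatin assembly), Srrm2 (a splicing speckle protein) and Ccne1 (cyclin E1), at 36.9, 29.9 and 32.5 in KH-CB19 and 33.9, 31.4 and 30.8 in DMSO. All 12 were 400 bp or shorter, as were 21 of the 23 introns with an excess of 20 or more.

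The KH-CB19 group at 0 h was not read by the rule and gives a second look at the same introns in other libraries. All 208 introns had a value there, and their median excess was 10.3, with a lowest value of 5.80 and a highest of 153. At least 8-fold excess was seen in 177 of the 208. All 208 were past an adjusted p of 0.05 above expectation in the authors' deposited table, where 93.7% of the introns with a 2 h value and 27.6% of all introns with a value were called. In DMSO at 0 h, where the rule applied, all 208 were called as well, against 98.7% of the introns with a 2 h value. Applied to KH-CB19 instead, the same rule chose 170 introns, of which 151 were members: 88.8% of those 170 and 72.6% of the 208.

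Across the 208 introns the log2 excess in KH-CB19 and in DMSO had a Pearson r of 0.965. This is a description: the points share the same gene models and expected values built by the same method, and the lower limit on DMSO narrows their range. The excess was higher in KH-CB19 for 94 introns, lower for 113 and equal for 1. The difference in log2 excess, KH-CB19 minus DMSO, had a median of -0.02 and an SD across introns of 0.21. Only ratios within a group are compared here, since the 0 h means were multiples of 0.5, as means of 2 unscaled counts would be.

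**Figure D1:**
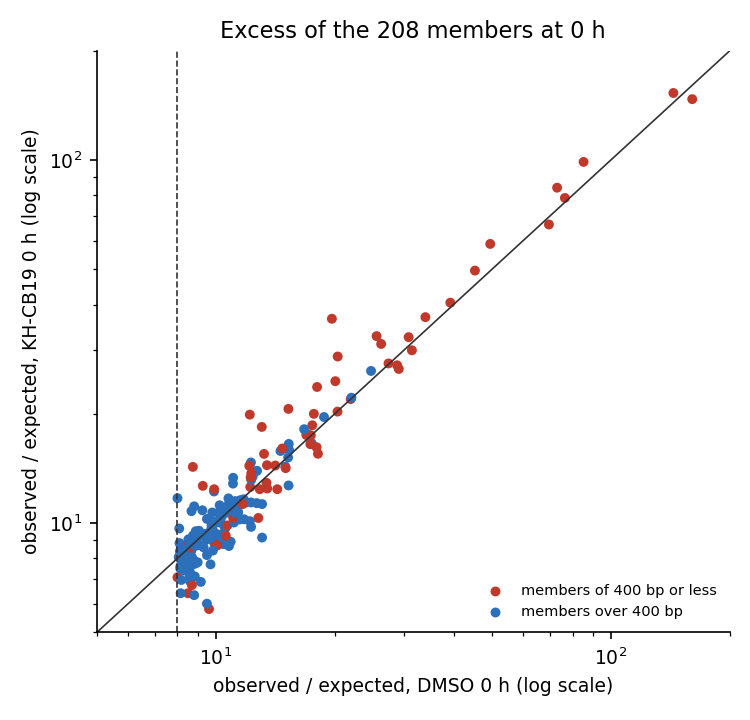
Observed over expected mean reads for each of the 208 introns in KH-CB19 at 0 h (vertical, log scale) and in DMSO at 0 h (horizontal, log scale), coloured by intron length. The solid line marks equal values and the dashed line the 8-fold limit in DMSO. Points lie along the line from 8 to 161 in DMSO, and the largest values are all introns of 400 bp or less.

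A few introns departed from that line. In Taf15, an RNA-binding protein of the FET family, intron 49 had an excess of 36.5 in KH-CB19 and 19.7 in DMSO, and intron 35 had 19.9 in KH-CB19 and 12.2 in DMSO. Intron 49 had 2065 observed against 56.5 expected reads in KH-CB19, and 826.5 against 42 in DMSO. Intron 24 of Rnf10, a RING finger gene, had an excess of 14.3 in KH-CB19 and 8.75 in DMSO. In the other direction, intron 23 of Cirh1a, a ribosome biogenesis gene, had 5.80 in KH-CB19 and 9.62 in DMSO. Intron 27 of the centrosomal gene Cep250 had 6.00 in KH-CB19 and 9.50 in DMSO. The KH-CB19 values rest on 29 observed against 5 expected reads in Cirh1a and 24 against 4 in Cep250. For Taf15 intron 49, the authors' deposited adjusted p of observed against expected was 2.24e-10 in KH-CB19 and 7.93e-77 in DMSO. For intron 35 these were 4.76e-10 and 3.21e-45. The larger values thus stood beside more reads, and the reason was not tested. No replicate spread is at hand to test any of these differences.

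Members differed widely in length, and the largest excesses were among the short ones. Their median length was 1088 bp, while that of the other introns with a 2 h value was 1575 bp. Those other introns were not held to an expected mean of 5. The members' median moved with the limits, to 509 bp at an excess of at least 10 and 1580.5 bp at one of at least 6. It was 1456 bp at an expected mean of 10 or more and 1686.5 bp at 20 or more. The 67 members of 400 bp or less had a median excess of 15.5 in KH-CB19 and 14.3 in DMSO at 0 h, and the 141 longer members had 9.24 in KH-CB19 and 9.74 in DMSO. Introns of up to 150 bp made up 15.9% of all members and 4.87% of the other introns with a 2 h value. The shortest were Msh6 intron 4 and Slc20a1 intron 2 at 103 bp, and Dnmt3l intron 2 at 104 bp. The longest were Usp34 intron 78 at 9712 bp, Hsd17b4 intron 2 at 9268 bp and Psme4 intron 50 at 8528 bp. The division at 400 bp was chosen after the values had been seen, so no test was made on it.

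**Figure D2:**
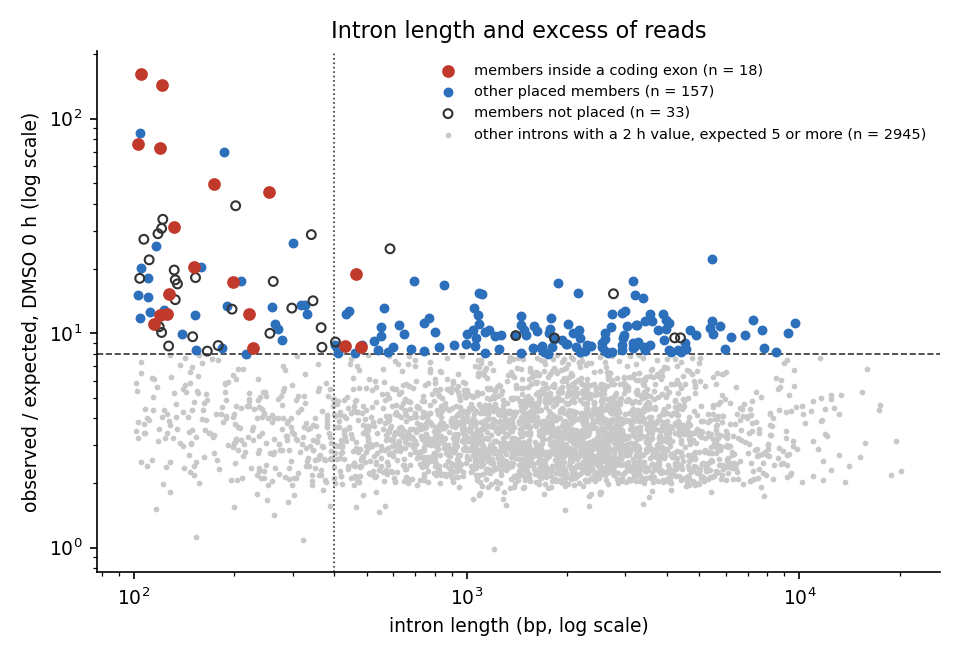
Intron length (horizontal, log scale) and observed over expected reads in DMSO at 0 h (vertical, log scale). Red points are the 18 members inside a coding exon, blue points the 157 other placed members, open circles the 33 members not placed, and grey points the other introns with a 2 h value and an expected mean of 5 or more; the dashed line is the 8-fold limit and the dotted line 400 bp. The 12 largest values lie to the left of the dotted line.

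Position in the gene could be read for 175 of the 208 members. By gene symbol, strand and exact length, 146 members (70.2%) matched a single annotated intron, against 88.0% of the other introns with a 2 h value. A further 29 members were placed by their distance to matched introns on both sides. At 400 bp or less, 19 of 67 members (28.4%) matched by length, against 70.3% of the other introns. Above 400 bp, 90.1% of members and 90.9% of the other introns matched. Among the 12 largest excesses, introns of Dnmt3l, Trip12 and Fn1 matched by length, and those of Sae1, Chaf1a and Ccne1 were not placed. Of the 175 placed members, 18 lay inside a coding exon of some transcript (10.3%), against 13 of 3034 other placed introns with a 2 h value (0.428%) and 5 of 17861 placed introns without one (0.0280%). This class was noticed in the data and has no test. Reads of such an exon count as observed reads of the intron, so the rule itself can favour the class. The other introns were not matched in length or held to an expected mean of 5. Counting also introns not placed, the class held 9 of 33 members and 8 of 158 other introns of up to 150 bp. Above 150 and up to 400 bp it held 6 of 34 members and 4 of 290 others with a 2 h value. A stretch kept as exon and an unspliced intron give the same reads, and the share of each was not tested.

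The 18 introns inside coding exons were 103 to 480 bp long with a median of 141.5 bp, within exons of 246 to 7525 bp. In 10 of the 18 the length was a multiple of 3. Their median excess was 20.3 in KH-CB19 and 18.1 in DMSO at 0 h. Besides Eif4g1, Rif1, Msh6, Eif3a, Bms1, Fn1, Srrm2 and Taf15, the genes that held them included Iws1 (transcription elongation), Slc7a6 (amino acid transport), Tfe3 (a transcription factor), Mtap1s (microtubule binding), Umps (pyrimidine synthesis), Bsg (basigin, a membrane glycoprotein), Znhit6 (snoRNP assembly), Sgol1 (shugoshin, which protects centromeric cohesion) and Mthfsd. The Srrm2 intron lay in an exon of 6569 bp and the Rif1 intron in one of 3090 bp. None of the 18 was called at 2 h, where 9.64% of all introns with a 2 h value were called in either direction, and their log2 ratios of KH-CB19 to DMSO in the authors' deposited table ran between -0.20 and 0.75.

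Among members matched by length, 129 of 146 (88.4%) lay between coding exons, 8 in the 5' UTR, 4 in the 3' UTR and 5 in non-coding transcripts. Order was read in 1 chosen transcript holding the intron, where first introns were 7.53% of matched members and 2.06% of the other matched introns with a 2 h value. Some of these transcripts are short. Wnk1 intron 13, Alg13 intron 9 and Sec62 intron 8 were first in transcripts of 4, 3 and 1 introns. A first intron by this count therefore need not be the first of its gene. In transcripts of 10 or more introns, 57.8% of matched members were among the last 5 introns. This share was 53.9% for the other introns with a 2 h value and 37.9% for introns without one. Those transcripts had medians of 26, 17 and 16 introns in the same order, so the window covered a smaller part of the members' transcripts. Over all matched introns, the median of intron number over number of introns was 0.88, 0.75 and 0.62. By length, 27.3% of members of 400 bp or less and 60.7% of longer ones were among the last 5. A retained-intron transcript crossed 13.7% of placed members, against 13.9% of the other placed introns with a 2 h value. An exon of another transcript of the gene lay inside 19 of the 146 matched members (13.0%). Among the other matched introns with a 2 h value this share was 10.1%. A small RNA gene lay inside 1 member. Only intron 57 of Dnajc13 overlapped another intron with a 2 h value, by 844 bp, so these share reads. Within the same genes, the other introns stood lower, which the rule favours since it took out high values of this same ratio. Of these, 959 had a DMSO value at 0 h, with a median excess of 1.00. Over all introns outside the members the median was 1.43. In 185 of 190 genes with more than 1 measured intron, the largest excess was in a member, as the rule favours.

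After 2 h the 208 introns divided into a small changed set and a large uncalled one. In the authors' deposited table, 11 members (5.29%) were higher and 7 (3.37%) lower in KH-CB19 than in DMSO at an adjusted p below 0.05. Over all 3454 introns with a 2 h value these shares were 5.47% higher and 4.17% lower, 9.64% in either direction, so the members' counts were close to the background. The authors' own response label reads Less for the 11 higher members and More for the 7 lower ones. Directions here follow the 2 h means, with higher meaning more intron reads in KH-CB19. The median log2 ratio was 0.12 over the members and 0.00 over all introns with a 2 h value. The ratio was above 0 in 128 members and below 0 in 80, against 1722 and 1732 of all introns with a 2 h value. The 2 h ratios compare intron reads, with no value for the exons of the gene beside them. A change of the intron alone was therefore not separated from one of the whole transcript. Fewer cells of a type and less RNA per cell cannot be told apart in bulk samples such as these.

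**Figure D3:**
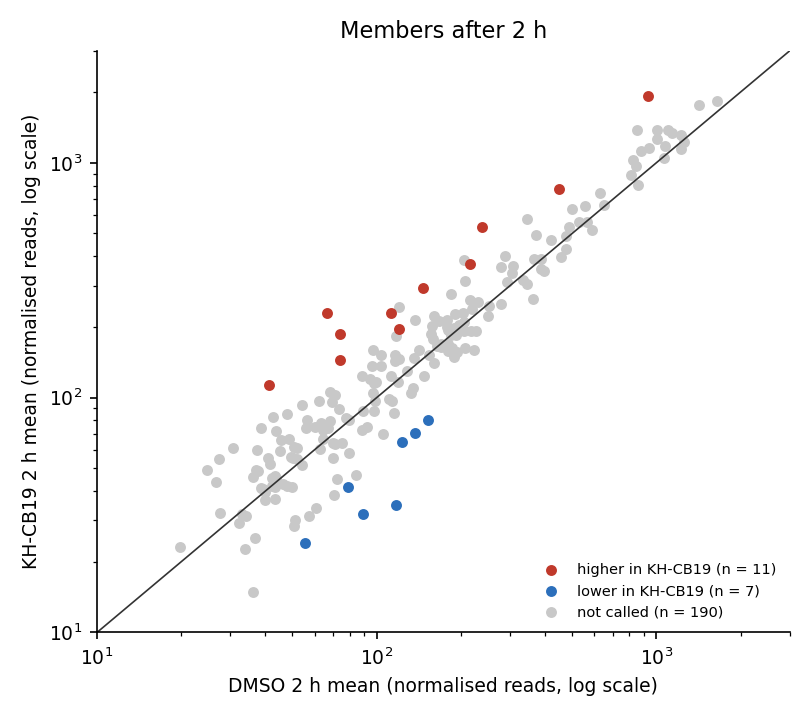
Mean normalised reads after 2 h for each of the 208 members in KH-CB19 (vertical, log scale) and in DMSO (horizontal, log scale). Red points are the 11 members higher in KH-CB19 and blue points the 7 lower, past an adjusted p of 0.05 in the authors' deposited table; grey points are the 190 not called, and the line marks equal means.

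The 2 largest rises were in genes of the nuclear pore. Intron 59 of Tpr, a protein of the pore's nuclear basket, lies at chr1:152294761-152296272 on mm9 and matched intron 50 of 51 of an annotated transcript, between coding exons. A retained-intron transcript crossed it, and an exon of another Tpr transcript lay inside it. Whether reads of those exons contributed was not tested. The intron had a mean of 230 normalised reads in KH-CB19 and 66.2 in DMSO at 2 h. Its log2 ratio in the authors' deposited table was 1.79 with an adjusted p of 1.13e-10. Intron 32 of Nup210, a pore membrane protein, lies at chr6:90975353-90976752 and matched intron 32 of 39. It had 114 reads in KH-CB19 and 41.0 in DMSO, a log2 ratio of 1.47 with an adjusted p of 0.000122 in the authors' deposited table. The other member of Tpr, intron 57, had 41.7 reads in KH-CB19 and 49.8 in DMSO, and was not called. The pair of Tpr introns thus had different values in the same groups, and whether they differ from each other was not tested. Of the 6 nuclear pore and transport members, 2 were higher, none lower and 4 not called, with Xpo1, Ipo9 and Nup88 among the last. Of all 75 introns with a 2 h value in that list 8 were higher and 1 lower, and over all such introns 5.47% were higher and 4.17% lower.

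Introns of genes with other roles rose as well. Intron 27 of Atp11b, a phospholipid flippase, had 186 reads in KH-CB19 and 73.8 in DMSO, and was crossed by a retained-intron transcript. Intron 19 of Blm, a RecQ helicase, had 532 reads in KH-CB19 and 238 in DMSO, a log2 ratio of 1.16 with an adjusted p of 0.000843 in the authors' deposited table. Intron 15 of the deubiquitinase gene Usp48 was the most abundant member that rose, with 1930 reads in KH-CB19 and 936 in DMSO. An exon of another Usp48 transcript lay inside this intron. Intron 34 of Pcnt, which encodes the centrosomal scaffold pericentrin, had 229 reads in KH-CB19 and 112 in DMSO. Intron 16 of Dhx36, a helicase that unwinds G-quadruplexes, had 293 reads in KH-CB19 and 147 in DMSO. All 5 passed an adjusted p of 0.05 by the authors' deposited table.

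The 4 smaller rises were in Kdm2a, Trim24, Ncor1 and Sap130. Intron 18 of Kdm2a, a histone demethylase, had 145 reads in KH-CB19 and 73.9 in DMSO. Intron 12 of the cofactor gene Trim24 had 776 reads in KH-CB19 and 448 in DMSO. Intron 61 of Ncor1, a corepressor, had 370 reads in KH-CB19 and 216 in DMSO. Intron 53 of Ncor1, the other member of that gene, had 313 reads in KH-CB19 and 207 in DMSO and was not called. Intron 19 of Sap130, part of a Sin3 corepressor complex, had 195 reads in KH-CB19 and 120 in DMSO. For it the authors' deposited table gave a log2 ratio of 0.70 and an adjusted p of 0.0352. An exon of another Sap130 transcript lay inside this intron. In the list of chromatin regulators, which holds Kdm2a but not Trim24, Ncor1 or Sap130, 1 of 13 members was higher and none lower. Of all 72 introns with a 2 h value in that list 8 were higher and 2 lower. Over all such introns 5.47% were higher and 4.17% lower.

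The largest fall was in Fmr1, which encodes an RNA-binding regulator of translation. Its intron 15 lies at chrX:65963955-65965405 and matched intron 14 of 16, between coding exons. It had 35.0 reads in KH-CB19 and 117 in DMSO at 2 h, a log2 ratio of -1.74 with an adjusted p of 2e-06 in the authors' deposited table. Intron 21 of Trappc10, a subunit of a vesicle tethering complex, lies at chr10:77651696-77656103 and matched intron 21 of 22. It had 31.8 reads in KH-CB19 and 89.7 in DMSO. Intron 26 of the zinc finger gene Zmym2 had 24.1 reads in KH-CB19 and 55.4 in DMSO, the lowest KH-CB19 mean among the members called.

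The other 4 falls were close in size. Intron 33 of Zfml had 70.4 reads in KH-CB19 and 137 in DMSO. Intron 25 of Atxn2, an RNA-binding protein, had 64.6 reads in KH-CB19 and 123 in DMSO. Intron 78 of the deubiquitinase gene Usp34 had 80.6 reads in KH-CB19 and 153 in DMSO. Intron 60 of Spna2, which encodes an alpha spectrin, had 41.6 reads in KH-CB19 and 78.7 in DMSO, with an adjusted p of 0.0486 in the authors' deposited table. The neighbouring member of Spna2, intron 57, had 45.2 reads in KH-CB19 and 72.2 in DMSO, and was not called.

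**Figure D4:**
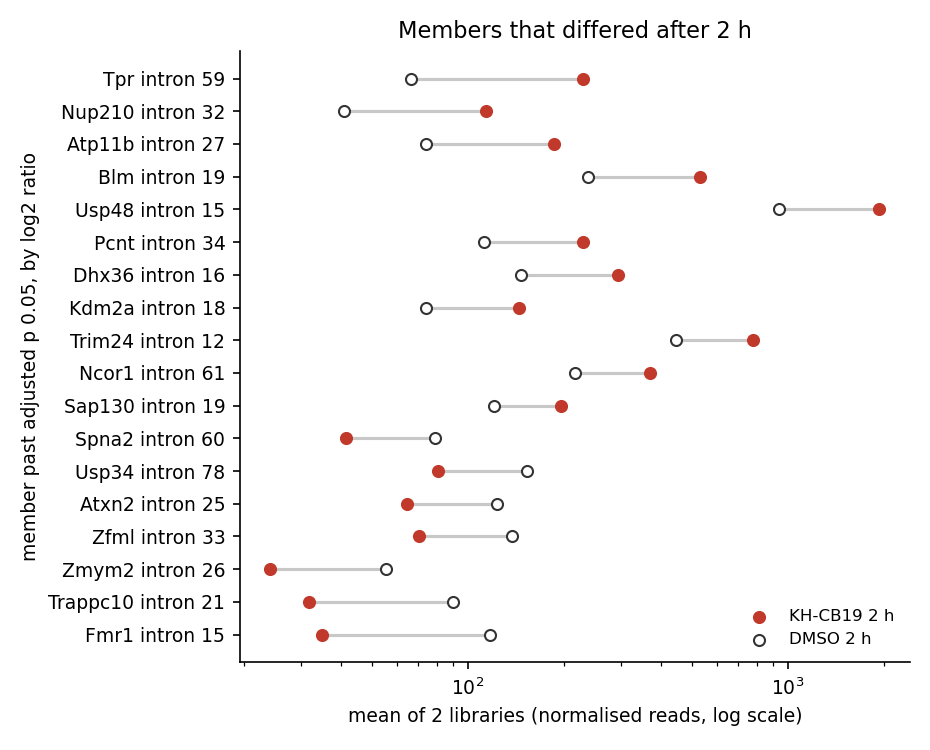
Mean normalised reads after 2 h (horizontal, log scale) for the 18 members past an adjusted p of 0.05 in the authors' deposited table, filled for KH-CB19 and open for DMSO, ordered by log2 ratio. The top 11 are higher in KH-CB19, from Tpr intron 59 at 230 reads in KH-CB19 and 66.2 in DMSO, and the bottom 7 lower, down to Fmr1 intron 15 at 35.0 reads in KH-CB19 and 117 in DMSO.

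All 18 called members were 913 bp or longer and had an excess between 8.09 and 12.2 in DMSO at 0 h. None of the 67 members of 400 bp or less was called, against 4.46% of the other introns of that length with a 2 h value. Among longer introns, 12.8% of the 141 members and 10.5% of the other introns were called. The short members had a median of 201 reads in KH-CB19 and 197 in DMSO at 2 h, above the long members at 98.2 in KH-CB19 and 97.7 in DMSO. Their log2 ratios had an SD across introns of 0.28, against 0.62 for the other introns of that length, whose median means were 33.9 reads in KH-CB19 and 31.8 in DMSO. The part of read depth in that difference was not tested.

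**Figure D5:**
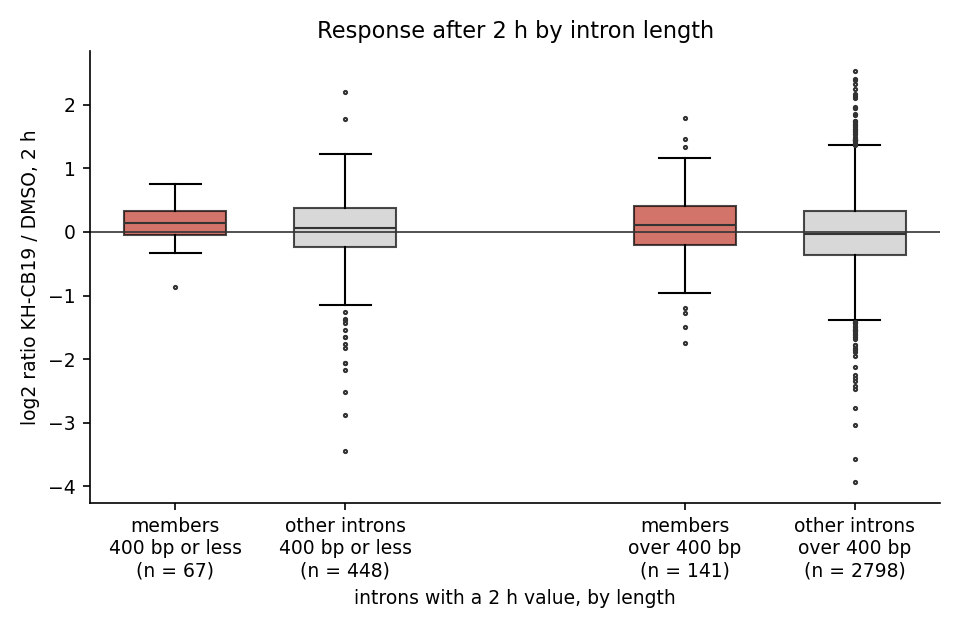
Log2 ratio of KH-CB19 to DMSO after 2 h, from the authors' deposited table, for members and other introns with a 2 h value, split at 400 bp. Boxes span the quartiles with the median as a line, whiskers reach 1.5 times that span and points lie beyond it. The box of short members is the narrowest.

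None of the 5 members with the most DMSO reads after 2 h was called. Intron 4 of Msh6 had 1839 reads in KH-CB19 and 1643 in DMSO, and intron 2 of Hsd17b4, a peroxisomal enzyme of fatty acid oxidation, had 1764 in KH-CB19 and 1419 in DMSO. Intron 17 of Srrm2 had 1222 reads in KH-CB19 and 1257 in DMSO. Intron 2 of Ttc17 had 1314 reads in KH-CB19 and 1227 in DMSO, and intron 21 of Eif4g1 had 1142 in KH-CB19 and 1223 in DMSO. Both Taf15 introns, among the 3 with the largest gain of excess in KH-CB19 at 0 h, had higher means in KH-CB19 at 2 h without passing the threshold: intron 49 had 1383 reads in KH-CB19 and 853 in DMSO, with an adjusted p of 0.107 in the authors' deposited table.

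Genes with several members gave values for introns of the same gene side by side. In Dst, introns 94, 95 and 99 had an excess of 8.40, 13.3 and 13.9 in KH-CB19 and of 9.83, 11.1 and 12.7 in DMSO at 0 h, and none was called at 2 h. After 2 h, introns of the same gene did not always have like ratios. Intron 65 of Utp20, a ribosome biogenesis gene, had 74.5 reads in KH-CB19 and 38.7 in DMSO, with an adjusted p of 0.0514 by the authors' deposited table. Its intron 63 had 72.9 reads in KH-CB19 and 64.4 in DMSO. In Rtel1, a helicase that maintains telomeres, intron 35 had 31.4 reads in KH-CB19 and 57.4 in DMSO, and intron 40 had 205 in KH-CB19 and 197 in DMSO. In Prrc2c, introns 45 and 47 had 193 and 98.2 reads in KH-CB19 and 226 and 111 reads in DMSO. None of the 6 introns of Utp20, Rtel1 and Prrc2c was called.

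By function, 70 of the 208 members belonged to at least 1 of 18 gene lists. DNA damage response and repair had 9 members of 74 introns with a 2 h value (12.2%), with Blm higher and none lower. Beside Rif1, Msh6 and Blm, these included introns of Rad54l, Fanca, Msh3, Topbp1 and Fancd2. Intron 2 of Rad54l, a recombination factor, lay in the 5' UTR and had an excess of 13.7 in KH-CB19 and 12.3 in DMSO. Chromatin regulators had 13 of 72 (18.1%), among them Dnmt3l, the demethylase gene Kdm6a at an excess of 14.7 in KH-CB19 and 12.3 in DMSO, and Kdm3b at 10.2 in KH-CB19 and 11.8 in DMSO. Nonsense-mediated decay and RNA surveillance had 6 of 27 (22.2%), among them introns of Dis3, Zfc3h1, Smg1 and Skiv2l2, and none called. Motor, actin and microtubule genes had 10 of 63 (15.9%), 3 of them in Dst, with Spna2 intron 60 lower. Cell cycle, replication and chromosome structure genes had 7 of 64 (10.9%) and none called. Among all introns of a list with a 2 h value, 2 were higher and 1 lower for DNA repair, and 0 and 1 for RNA surveillance. These counts were 5 and 5 for motor, actin and microtubule genes, and 4 and 6 for cell cycle genes. Over all introns with a 2 h value, 5.47% were higher and 4.17% lower, and the share of members was 6.02%.

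Among lists of splicing genes the shares lay on either side of that value. The core spliceosome had 4 members of 55 introns with a 2 h value (7.27%), in Dhx16, Puf60, Sf3b3 and Dhx15. No member was called, while 3 of the 55 introns were higher and none lower. Intron 26 of Sf3b3 came nearest, with 183 reads in KH-CB19 and 117 in DMSO and an adjusted p of 0.0676 in the authors' deposited table. SR and SR-related genes had 2 of 51 (3.92%), in Srrm2 and Luc7l3, and the CLK, SRPK and DYRK kinases had none of 11. The hnRNP and FET genes had 2 of 32 (6.25%), both in Taf15, and other RNA-binding splicing regulators had 2 of 46 (4.35%), in Fubp3 and Celf1. Heat shock chaperones and protein phosphatases held no member.

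In the remaining lists, cleavage, polyadenylation and Integrator genes had 3 of 28 (10.7%), in Pabpn1, Ints10 and Ints7, and ribosomal proteins and translation factors had 3 of 35 (8.57%), in Eif4g1, Eif3a and Eif4g2. Vesicle coat and trafficking genes had 2 of 36 (5.56%), in Dnm1l and Trappc10, and the Trappc10 intron was lower. Of those 36 introns 1 was higher and 2 lower. The pluripotency network had 1 of 13 (7.69%), in Rif1, and the O-GlcNAc cycling genes had 1 of 3 (33.3%), intron 6 of the transferase gene Ogt, at an excess of 8.96 in KH-CB19 and 8.60 in DMSO. Nuclear pore and transport genes had 6 of 75 (8%).

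As a check of the cell type, 13 of 14 pluripotency marker genes had introns with a DMSO value at 0 h, among them Pou5f1, Nanog and Esrrb. None of the 16 germ layer and trophoblast markers had one, and of 12 fibroblast markers only Fn1 had. Values in introns say little of the level of a gene, and genes with short or no introns cannot appear. The labels give RNA integrity numbers of 8.8 to 9.4 for the 8 libraries.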

How the data were processed

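Polyadenylated RNA was sequenced in 8 libraries of 4 groups, and the table used here holds the values of each intron. Per the file headers, the authors gave observed and expected mean counts at 0 h, a normalised mean read count (a signal) at 2 h, log2 ratios and adjusted p-values for each comparison. The 0 h means were multiples of 0.5 in the deposited table. The submitters' processing notes name DESeq, Cufflinks 2.1.1, TopHat2 2.0.9, bedtools 2.17.0, Bowtie 1.0.0 and SAMtools 0.1.19, and build mm9. How expected counts were made is not given in the sources used here. DESeq is the only statistical tool these notes name, and the authors' adjusted p-values are taken to be from it.

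From these values the rule was applied, ratios of means were formed and introns were counted with pandas 2.3.3 (Python 3.11.15). No new test was made: only group means were used, so neither a fit nor a spread between replicates was possible. The table does not give the depth of whole libraries. Members, lists and the rule for named introns (the 12 largest excesses, every called intron, the 5 highest DMSO means, introns at the limit, list members, genes with several members, extremes of length and of the 0 h difference) were chosen with earlier results of these data known. Some introns that this rule names are not reported here. The length division, the last-5 window, the coding-exon class and the placement by spacing were chosen after seeing values.

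Introns were matched to GENCODE M21 (GRCm38) by gene symbol, strand and a length that only 1 annotated intron of the gene has. Others were placed where the distances to the nearest matched introns on both sides were the same in the table and in the annotation. No coordinate was converted and printed. With each matched intron hidden in turn, 8828 of 8840 that could be placed this way (99.9%) came out at their matched position. All 97 introns placed by spacing that had a transcript sequence began and ended as GT-AG (85), GC-AG (11) or AT-AC (1). The code for the rule and the counts was run on simulated data with planted members and calls. The planted values lay past the limits by design, so this checked the code alone. Alternatives changed the limits of the rule, the threshold, pseudocounts and the members counted.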

Additional observations from a re-analysis of the deposited data

How the results depend on the processing

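The number of members was 414 with an excess of at least 6, 116 with at least 10, 122 with an expected mean of 10 or more and 70 with 20 or more, and 170 by the same rule on KH-CB19. Members higher at 2 h were 22 of 414 with an excess of at least 6 and 4 of 116 with at least 10. Members lower were 15 and 2 under those limits. They were 4 of 208 with an adjusted p below 0.01 and 4 of 170 with the rule on KH-CB19. At an adjusted p below 0.05, 5.47% of all introns with a 2 h value were higher and 4.17% lower. No such share was counted at 0.01. All other counts of calls stayed within 1.5 times. The median log2 ratio was 0.10 with an excess of at least 6, 0.0941 with at least 10, 0.14 with 2 h means of at least 50 reads and 0.10 with a pseudocount of 10. Added after seeing the data, it was 0.11 in members over 400 bp alone and 0.11 without members inside a coding exon; it was above 0 throughout. The median excess in KH-CB19 was 10.4 with an expected mean there of 5 or more, 9.94 with a DMSO expected mean of 10 or more, 9.82 with 20 or more, 9.13 with a pseudocount of 1, 9.24 over 400 bp and 10.0 outside coding exons. The median length was 1580.5 bp with an excess of at least 6, 509 bp with at least 10, 1456 bp with an expected mean of 10 or more, 1686.5 bp with 20 or more and 1085 bp with 1 member per gene. The cause of these differences was not tested. No paired analysis was possible because the table holds group means only, and leaving out single libraries was not run for the same reason. Low expected means limit the precision of an excess: 86 members had a DMSO expected mean under 10 reads.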
